A study of Mus musculus with 8 samples.

Results

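The genes described here encode the proteins of the cytosolic ribosome. They were found on the array as the probes whose RefSeq transcript carries a symbol beginning with *Rpl*, *Rplp* or *Rps* and a number, without the ribosomal S6 kinases (*Rps6k*) and without numbered pseudogenes. The rule found 87 genes among the 20660 named genes of the array, and these 87 genes had 174 probes. They comprised 46 genes of the large subunit, 30 genes of the small subunit and 11 genes outside both, which are paralogues of subunit genes or carry a ribosomal protein symbol for other reasons. *Rpsa* and *Fau*, which also encode ribosomal proteins, have names outside the rule and are given separately.

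The study used mice carrying Eedl7Rn5-1989SB, a hypomorphic allele of *Eed*, on a mixed C57bl6/129 background. EED is a core protein of Polycomb Repressive Complex 2, which places trimethylation on histone 3 lysine 27. Whole embryos were collected at E8.5, 4 sired by *Eed* wt/wt males (the wild-type father group) and 4 sired by *Eed* hypo/wt males (the heterozygous father group). All 8 embryos were themselves wild type and had wild-type mothers, and each group held 2 females and 2 males. The comparison asks whether expression in genetically wild-type offspring differed with the father's genotype. One slide held the arrays of the wild-type father group and another those of the heterozygous father group, and for this reason an effect of the slide cannot be told apart from one of the father. In the wild-type father group 3 of the 4 embryos share the first part of their embryo code, and the sources differ on how many males sired the embryos, so the p-values measure the spread between these embryos, some of which may be littermates.

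A ribosome is built from a small subunit, which holds the messenger RNA and the decoding site, and a large subunit, which forms the peptide bonds. Each ribosomal protein is needed in about the same amount, and many messenger RNAs of these genes begin with a run of pyrimidines, the 5′ terminal oligopyrimidine tract, through which their translation follows growth signals. Several members have a further role: *Rpl5* and *Rpl11* travel with the 5S ribosomal RNA and, when ribosome assembly fails, bind MDM2 and stabilise p53. Loss of one copy of single ribosomal protein genes gives patterning, pigment or blood defects in the mouse, such as the tail and skeletal defects of *Rpl38* mutants.

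The sequences below show where this tract, a feature that the rule did not use, was present at start sites of RefSeq and where it was not. RefSeq promoter windows (build GRCm38.p6) were found for 68 of the genes and gave 80 start sites. A run of at least 8 bases of C or T within 3 bases of the start was present at 24 of the 80 start sites (30.0%), and at 7.84% of all other promoters in the same table. A C at the start followed by 4 pyrimidines was present at 18.8% of the start sites of these genes and at 2.47% of the others. Only the strand of the gene was searched. Each line gives 30 bases, of which 15 lie before the start, and capitals mark a run of at least 8 pyrimidines that comes within 3 bases of the start. Runs farther from the start stay in lower case. *Rpl4* and *Rps15* are shown because they had the lowest p-values between father groups, *Rpl38*, *Rplp2*, *Rpl15* and *Rps27* as examples with a tract, and 3 paralogues for comparison.
Rpl4, chr9:64173372-64173401, plus strand: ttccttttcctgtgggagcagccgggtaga
Rps15, chr10:80292416-80292445, plus strand: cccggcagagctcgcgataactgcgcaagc
Rpl38, chr11:114668565-114668594, plus strand: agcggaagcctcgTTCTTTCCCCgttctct
Rplp2, chr7:141447636-141447665, plus strand: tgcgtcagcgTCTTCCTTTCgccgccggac
Rpl15, chr14:18270972-18271001, minus strand: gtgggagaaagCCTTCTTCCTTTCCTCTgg
Rps27, chr3:90213634-90213663, minus strand: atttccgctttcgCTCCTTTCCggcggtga
Rpl22l1, chr3:28805493-28805522, plus strand: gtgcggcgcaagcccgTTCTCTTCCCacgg
Rps27l, chr9:66946071-66946100, plus strand: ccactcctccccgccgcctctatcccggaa
Rpl39l, chr16:10170213-10170242, plus strand: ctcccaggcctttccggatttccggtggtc
The tract of *Rpl38*, 10 bases long, spans the start itself, and that of *Rpl15* was the longest printed here, at 17 bases. The windows of *Rpl4* and *Rps15* hold no such run at the start, though that of *Rpl4* holds a run of pyrimidines farther before it. The starts are those of RefSeq, and the starts used in these embryos were not measured. A gene without a run here may therefore still carry a tract.

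Expression is given as the log2 processed spot intensity after each array was shifted so that its 75th percentile was 0, and the brightest probe of each gene stands for it. A level of 7 therefore means a signal 7 doublings above the 75th percentile of that array. Levels are compared between embryos for the same probe and not between genes, since probes differ in how strongly they bind. A probe was tested if it lay above the lowest 20% by mean and was well above background on at least 4 arrays. Of the 87 genes, 86 passed, with 172 tested probes, and the brightest probe of each of the 86 was well above background on all 8 arrays. The exception was *Rpl3l*, the heart and skeletal muscle form of *Rpl3*, which was well above background on 0 arrays. No member probe was saturated. Since the mouse genome holds many processed copies of ribosomal protein genes, signal from a transcribed copy cannot be told apart from that of the gene here.

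Wild-type embryos did not differ detectably in their ribosomal protein messenger RNAs with the genotype of their father. With limma, 0 of the 86 genes were called at an adjusted p under 0.01 and at least 2-fold, beside 0 of all 33093 tested probes (0.0%). The smallest adjusted p among them from limma was 0.9998. At an unadjusted p under 0.05 there were 2 of 86, beside 4.18% of the 15378 tested named genes, which is near the share of the array as a whole. Of the 86 differences, 82 lay within 0.2 log2 units of 0 and none reached 2-fold. The median log2 difference of heterozygous over wild-type father was 0.03, against 0.02 over all tested named genes, with 59 genes above 0 and 27 below, where 57.1% of the tested named genes lay above 0. That direction depended on the scaling of the arrays. After a shift by the array median, 8 genes lay above 0 and 78 below, and after quantile normalization 36 lay above and 50 below. The median shift moved replicate 3 of the heterozygous father group most. There the median minus the 75th percentile was -3.04, against -4.36 to -3.63 in the other embryos. After that shift the mean deviation of the 86 genes from their own averages was -0.91 there and -0.28 to 0.32 in the others. Because these are whole embryos, fewer cells of a type and less RNA per cell cannot be told apart.

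The 2 genes below that threshold were *Rps15* and *Rpl4*. *Rps15*, a small-subunit protein close to the decoding site, had levels of 6.81, 6.69, 6.70 and 6.76 in replicates 1 to 4 of the wild-type father group and of 6.98, 6.93, 7.02 and 6.88 in the heterozygous father group. All 4 embryos of heterozygous fathers lay above all 4 of wild-type fathers. The log2 difference was 0.21 ± 0.06 (SE; limma unadjusted p = 0.012, adjusted p = 0.9998), and the dimmer probe of *Rps15* gave 0.09 ± 0.10 with overlapping groups. *Rpl4*, a large-subunit protein that lines the peptide exit tunnel, had 6.60, 6.44, 6.58 and 6.69 with wild-type fathers and 6.69, 6.84, 6.74 and 6.78 with heterozygous fathers. The lowest embryo of the second group lay just above the highest of the first. The log2 difference was 0.19 ± 0.08 (SE; limma unadjusted p = 0.0396, adjusted p = 0.9998), and *Rpl4* had 1 tested probe. These 2 were the only tested members whose groups did not overlap in the brightest probe, beside 3.62% of all tested named genes. With a shift by the array median the difference was 0.11 for *Rps15* and 0.09 for *Rpl4*, with an unadjusted p of 0.7514 and 0.8114.

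**Figure D1:**
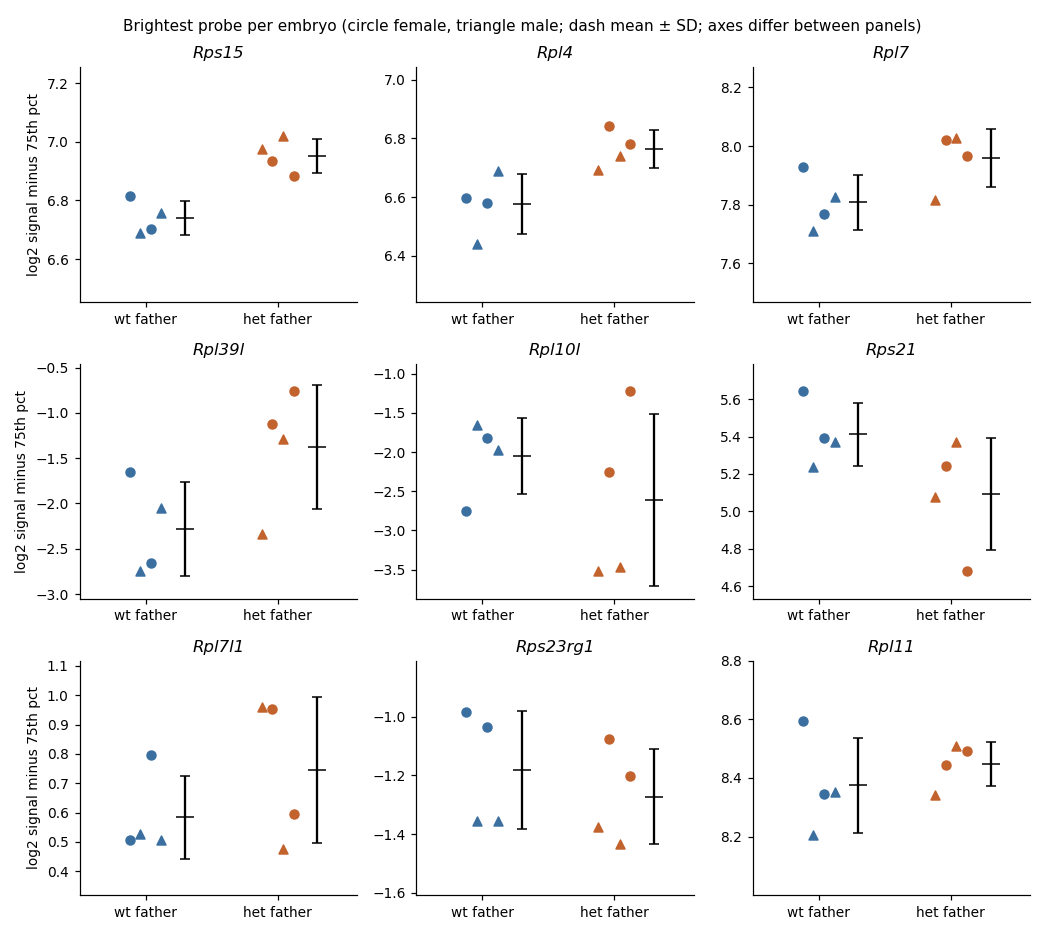
Level of the brightest probe of 9 ribosomal protein genes in each embryo, as log2 processed signal minus the 75th percentile of the array. Circles are females, triangles males, and the dash with bars is the mean ± SD of 4 embryos per father group. *Rps15* and *Rpl4* do not overlap between groups, *Rps23rg1* separates by sex within each group, and the paralogues *Rpl39l* and *Rpl10l* cover the widest ranges. The vertical axes differ between panels.

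The members with the largest differences besides these were 2 paralogues with signal below the 75th percentile of their arrays and 1 small-subunit gene. *Rpl39l*, a paralogue of *Rpl39* known from the testis, had -1.65, -2.75, -2.65 and -2.05 with wild-type fathers and -2.34, -1.12, -1.28 and -0.76 with heterozygous fathers. Replicate 1 of the heterozygous father group lay among the wild-type father embryos and the other 3 lay above all of them. The log2 difference was 0.90 ± 0.39 (SE; limma unadjusted p = 0.050, adjusted p = 0.9998). With each embryo left out in turn it ran from 0.70 to 1.22, and it was highest without replicate 1 of the heterozygous father group. *Rpl10l*, the autosomal retrocopy of X-linked *Rpl10* that acts in male meiosis, had -2.75, -1.65, -1.82 and -1.97 with wild-type fathers and -3.52, -2.25, -3.46 and -1.22 with heterozygous fathers. The heterozygous father group held both the highest and the lowest embryos. The difference of its means was -0.57 ± 0.54 (SE). With each embryo left out in turn it ran from -1.03, without replicate 4 of that group, to -0.27. *Rps21*, a small-subunit protein, had 5.64, 5.24, 5.39 and 5.37 against 5.08, 5.24, 5.37 and 4.68. Its difference of -0.32 ± 0.16 (SE; limma unadjusted p = 0.091) rested in part on replicate 4 of the heterozygous father group and was -0.18 without that embryo.

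The remaining members at either end lay within 0.2 log2 units. *Rpl7l1*, a nuclear paralogue of *Rpl7* with a part in ribosome assembly, was 0.16 ± 0.14 (SE) higher, and *Rpl7* itself was 0.15 ± 0.08 (SE) higher. *Rpl7a* was 0.10 ± 0.09 (SE) lower, *Rps4l* 0.10 ± 0.11 lower and *Rps23rg1*, a retroposed copy of *Rps23*, 0.09 ± 0.13 lower. None of these 5 passed an unadjusted p of 0.05.

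**Figure D2:**
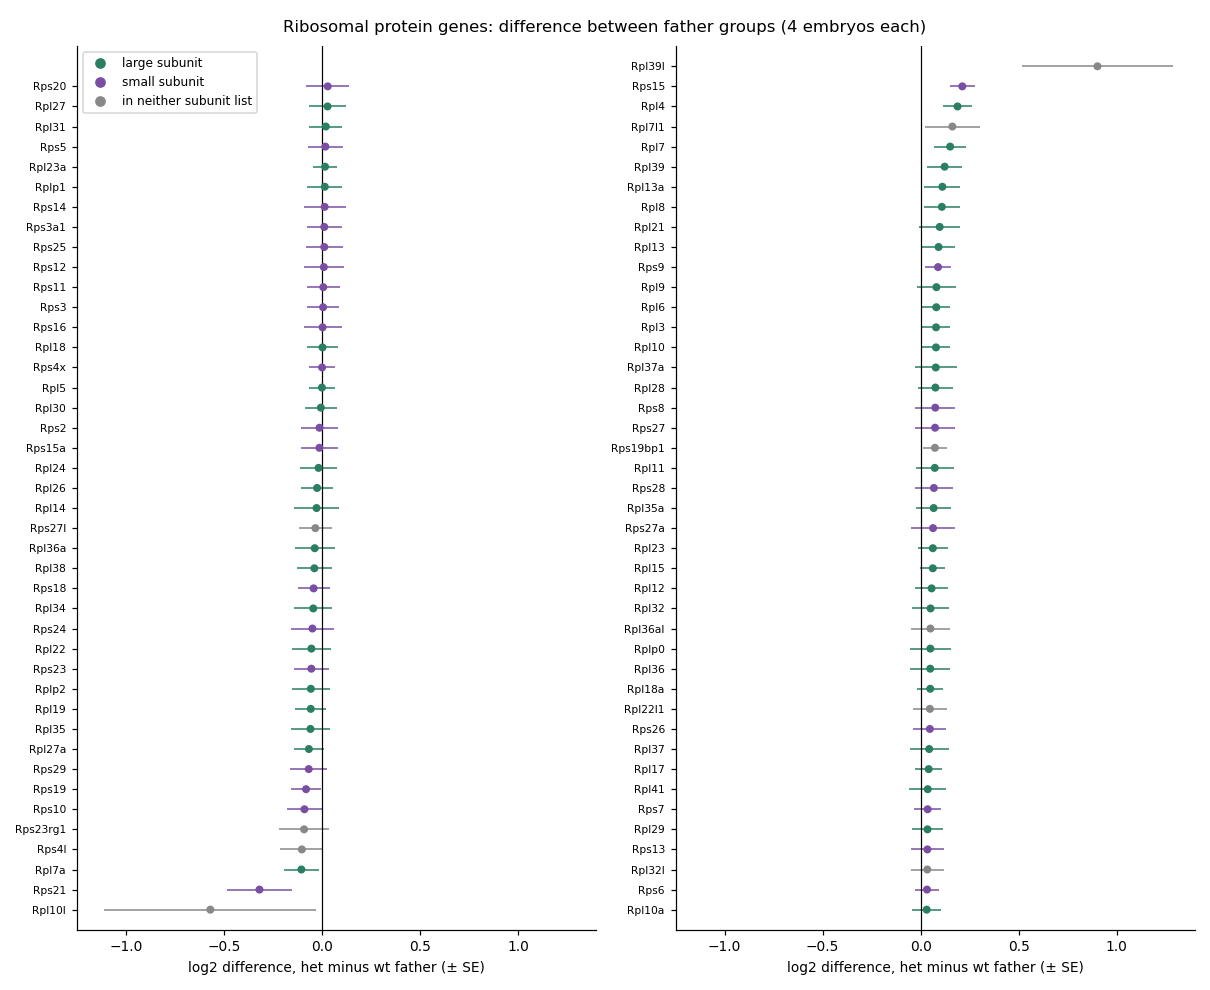
Log2 difference of heterozygous over wild-type father for 85 of the 86 tested ribosomal protein genes, from limma, with bars of ± SE and 4 embryos per group. Genes are ordered by difference, the lower 42 in the left panel and the upper 43 in the right, and coloured by subunit. All but 4 lie within 0.2 of 0, and *Rpl39l* and *Rpl10l* have the widest errors.

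Grouped by role, the median differences between father groups lay close to 0 and no member was called. The 46 large-subunit genes had a median log2 difference of 0.04 between father groups and a range of -0.10 to 0.19, with 33 above 0. The 30 small-subunit genes had a median of 0.01 and a range of -0.32 to 0.21, with 20 above 0. The 3 proteins of the stalk, which recruits translation factors to the ribosome, lay at 0.05 ± 0.10 (*Rplp0*), 0.02 ± 0.09 (*Rplp1*) and -0.06 ± 0.10 (*Rplp2*). In the 5S particle, *Rpl11* differed by 0.07 ± 0.10 and *Rpl5* by 0.00 ± 0.07. The levels of *Rpl5* were almost the same in all embryos, at 6.65, 6.63, 6.62 and 6.62 with wild-type fathers and 6.61, 6.77, 6.56 and 6.59 with heterozygous fathers. The groups of *Rpl5* overlapped fully.

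The 6 genes chosen because mutants show patterning, pigment or blood defects were also near 0. *Rpl38* differed by -0.04 ± 0.09, *Rpl24* by -0.02 ± 0.09 and *Rpl27a* by -0.07 ± 0.08. *Rps19*, the first gene linked to Diamond-Blackfan anaemia, differed by -0.08 ± 0.08, *Rps20* by 0.03 ± 0.11 and *Rps7* by 0.04 ± 0.07 (all ± SE). *Rpl24* had 8.29, 7.99, 8.04 and 8.15 with wild-type fathers and 7.97, 8.17, 8.20 and 8.05 with heterozygous fathers, and the groups overlapped. The 24 tested genes with a pyrimidine tract at a RefSeq start site had a median difference of -0.02 and the 41 with windows but without a tract there 0.03.

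Paralogues and their partners were measured side by side. *Rpl22l1* differed between father groups by 0.05 ± 0.09 and *Rpl22* by -0.05 ± 0.10. *Rpl36al* differed by 0.05 ± 0.10 and *Rpl36a* by -0.04 ± 0.10. *Rps27l*, which p53 induces, differed by -0.03 ± 0.09 and *Rps27* by 0.07 ± 0.10. *Rpl3* differed by 0.08 ± 0.07 while *Rpl3l* was not tested. The standard errors of the paralogues *Rpl39l* and *Rpl10l*, 0.39 and 0.54, were several times those of their partners *Rpl39* (0.12 ± 0.09) and *Rpl10* (0.08 ± 0.07). *Rps19bp1*, which encodes a binding protein of RPS19 and no subunit, differed by 0.07 ± 0.06. The 2 numbered pseudogenes that the rule left out and that were tested, *Rpl34-ps1* and *Rps15a-ps6*, differed by 0.15 ± 0.12 and -0.28 ± 0.34.

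Several genes were read by more than one probe, and the father differences of these mostly lay close together. Among the 51 genes with several tested probes, the median range of the father difference across the probes of a gene was 0.10 log2 units. The level over the 8 embryos correlated between the brightest probe and another probe of the gene with a median Pearson r of 0.69 over 86 probe pairs, of which 80 were above 0. These points share the array and its scaling. Pairs of different subunit genes had a median r of 0.67, with 91.7% above 0. The r between probes of a gene therefore cannot show an agreement particular to that gene. No gene had probes that differed by more than 1, and 3 genes had probes that differed by more than 0.5, namely *Rps6*, *Rps15a* and *Rps2*. Of the 172 probes, 6 of as many genes had an unadjusted p under 0.05 from limma, 5 higher and 1 lower with heterozygous fathers, beside 4.35% of all tested probes. The father groups did not overlap in 6 probes, beside 3.16% of all tested probes.

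The disagreements were at secondary probes. The brightest *Rps2* probe gave -0.01 ± 0.09. The second had 7.61, 7.46, 6.92 and 6.98 with wild-type fathers against 7.90, 7.69, 7.63 and 7.996 with heterozygous fathers, a difference of 0.56 ± 0.18 (SE; limma unadjusted p = 0.016) without overlap. The 2 *Rps2* probes correlated with an r of -0.03 over the 8 embryos. For *Rpl15* the brightest probe gave 0.06 ± 0.06. Its dimmer probe had 4.63, 4.77, 4.63 and 4.68 against 4.38, 4.40, 4.48 and 4.37, a difference of -0.27 ± 0.06 (SE; limma unadjusted p = 0.003, adjusted p = 0.9998), also without overlap. A second *Rps12* probe gave 0.25 ± 0.10 where the brightest gave 0.01 ± 0.10, and a dimmer *Rpl7a* probe gave 0.20 ± 0.07 where the brightest gave -0.10 ± 0.09. These secondary probes were named after their values were seen. Which transcript or copy each probe binds was not examined here.

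**Figure D3:**
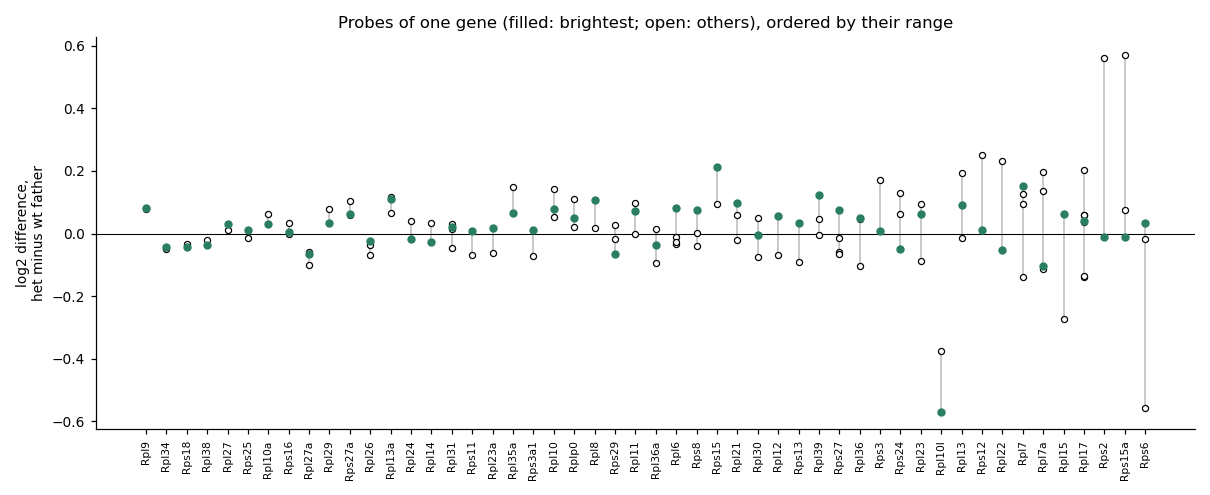
Log2 difference of heterozygous over wild-type father for every tested probe of 50 of the 51 genes with more than one tested probe. Filled points are the brightest probe of a gene, open points its other probes, and genes are ordered by the range across probes. The range is below 0.35 for all but *Rps2*, *Rps15a* and *Rps6*, at the right.

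Levels of ribosomal protein messenger RNA varied little from embryo to embryo. The SD over the 8 embryos had a median of 0.11 log2 units over the 86 genes, against 0.16 over all tested named genes, and 81 of the 86 lay below that second value. It was 0.10 for 24 translation factors and 0.07 for 25 ribosome assembly factors. The most even genes were *Rpl23a* (SD 0.05, from 7.33 to 7.47), *Rps6* (SD 0.05), *Rps4x* (SD 0.05), *Rps19bp1* (SD 0.06) and *Rpl5* (SD 0.06). *Rps6* is the ribosomal protein phosphorylated by the S6 kinases. The least even were *Rpl10l* (SD 0.84), *Rpl39l* (SD 0.74), *Rps21* (SD 0.28), *Rpl7l1* (SD 0.21) and *Rps23rg1* (SD 0.18). Of these 5, all but *Rps21* lie outside the lists of subunit genes. Those outside also had the lowest signals of the tested members, from -3.52 to 0.96 over the embryos. The other tested members outside the lists had SDs of 0.06 (*Rps19bp1*) to 0.15 (*Rps4l*). Spread was not compared with that of named genes of like signal.

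**Figure D4:**
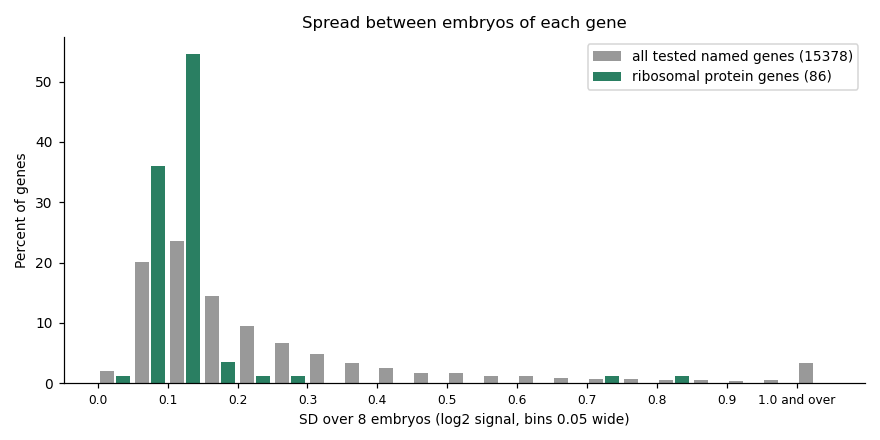
Share of genes by the SD of their level over the 8 embryos, in bins 0.05 log2 units wide, for all 15378 tested named genes (grey) and the 86 ribosomal protein genes (green). The green bars gather between 0.05 and 0.15, where 78 of the 86 genes lie, and the last bin holds SDs of 1.0 and over.

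What variation there was ran largely in common. The mean deviation of the 86 genes from their own averages was 0.10, -0.11, -0.05 and 0.01 in replicates 1 to 4 of the wild-type father group and -0.11, 0.07, 0.06 and 0.03 in those of the heterozygous father group. In replicate 1 of the wild-type father group 77 of the 86 genes lay above their mean, and in replicate 2 of that group 82 lay below. The group means were -0.01 ± 0.09 and 0.01 ± 0.09 (SD, n = 4), so the embryos of 1 father group differed among themselves by more than the groups did. Among the 76 subunit genes the median Pearson r over the 8 embryos was 0.67 over 2850 pairs, with 91.7% above 0, against 0.07 for the pairs of ribosome assembly factors and 0.07 for those of translation factors. *Rplp0*, the stalk base, followed the mean of the other subunit genes most closely (r = 0.99), and 69 members had an r above 0.5. The r was below 0 for 6 members, of which *Rpl21* (-0.24), *Rpl28* (-0.24) and *Rps3a1* (-0.08) are subunit genes and *Rps19bp1* (-0.39), *Rpl7l1* (-0.33) and *Rpl10l* (-0.21) are not.

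The shared movement depended on the scaling. The embryos with the lowest 75th percentile of raw log2 signal, 9.88 in replicate 1 of the wild-type father group and 9.91 in replicate 3 of the heterozygous father group, had positive deviations, and those with the highest, 10.32 and 10.31, had the most negative. The range over embryos of the mean deviation was 0.22 log2 units with the 75th percentile, 0.05 with quantile normalization and 1.23 with a shift by the array median. The median pairwise r was 0.02 after quantile normalization, and 0.69 with no scaling between arrays. With no scaling the mean deviation changed sign in replicates 1 and 2 of the wild-type father group, to -0.13 and 0.09. It also changed sign in replicates 1 and 3 of the heterozygous father group, to 0.08 and -0.14. The remaining embryos kept their sign. After quantile normalization the median SD of the subunit genes was 0.06, against 0.17 for all tested named genes. After a shift by the array median it was 0.39 against 0.47, with a median pairwise r of 0.98. The SD of the subunit genes thus lay below that of named genes under each of these scalings, while the shared movement differed. Quantile normalization gives every array the same set of values, and most of these genes lie far above the 75th percentile. Its low r therefore cannot show whether a shared movement was present.

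**Figure D5:**
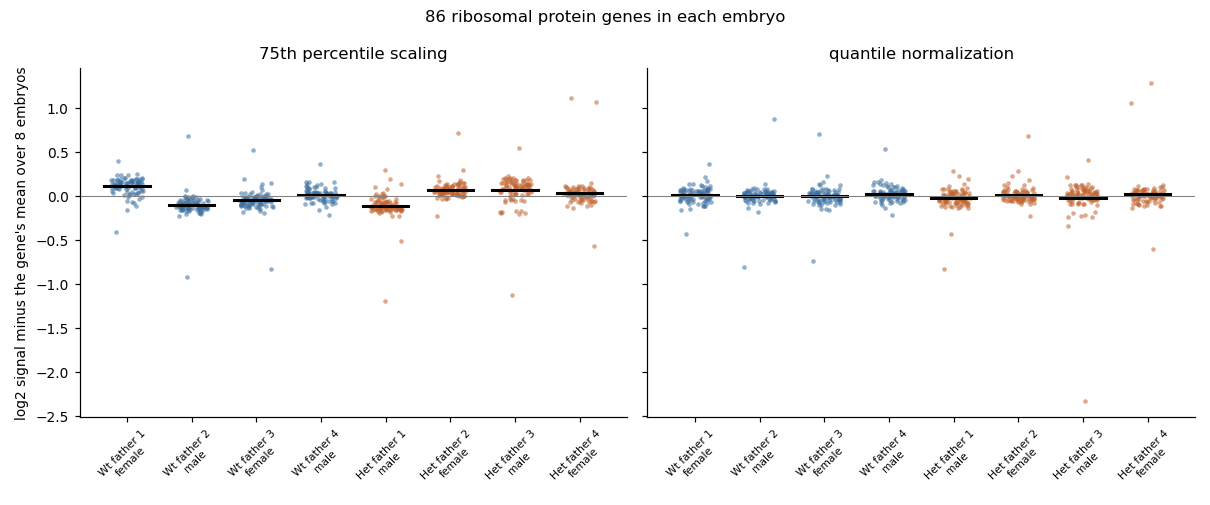
Deviation of each of the 86 ribosomal protein genes from its own mean over the 8 embryos (log2 units), by embryo, with the arrays scaled to the 75th percentile (left) or quantile normalized (right). Points are genes, black lines their mean. On the left the means run from -0.11 to 0.10, and on the right from -0.03 to 0.02, with single points far from 0 in both.

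Female and male embryos were compared within slides, since each slide held 2 of each. With limma and father's genotype as a covariate, 0 of the 86 genes were called between the sexes, beside 11 of 33093 probes (0.0332%), and 1 had an unadjusted p under 0.05, beside 2.78% of named genes. That gene was *Rps23rg1*, with levels of -0.98 and -1.03 in the females and -1.35 and -1.36 in the males of the wild-type father group. In the heterozygous father group the females had -1.08 and -1.20 and the males -1.38 and -1.43. Every female lay above every male, and the difference was 0.31 ± 0.06 (SE; limma unadjusted p = 0.0027, adjusted p = 0.9999). Its signal lay below the 75th percentile of every array. The brightest probe of *Rps23*, from which it was copied, was not separated by sex. The sexes did not overlap in 3 genes, *Rps23rg1*, *Rps3a1* and *Rps6*, beside 2.67% of named genes.

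The members leaned one way between the sexes without any of them being called. The median log2 difference of female over male was 0.07, with 79 genes above 0 and 7 below, where 41.4% of the tested named genes lay above 0. It was 0.07 within the slide of the wild-type father group and 0.06 within that of the heterozygous father group. The mean deviations were 0.04 ± 0.07 in females and -0.04 ± 0.09 in males (SD, n = 4), and the embryos of the sexes overlapped. After quantile normalization 47 genes lay above 0 and 39 below, with a median of 0.00, and after a shift by the array median 85 lay above 0. The 7 tested markers of primitive erythroid cells were also all higher in females, with a median of 0.48. Their summed level, in multiples of the 75th percentile, was 830 to 1220 in females and 514 to 992 in males, and none of them was at background. Their mean deviation was lowest, at -1.06, in replicate 4 of the wild-type father group, a male. The other males lay at -0.01, 0.00 and 0.14 and the females at 0.45, 0.12, 0.39 and -0.03. The 8 yolk sac endoderm markers were all above 0 too, with a median of 0.15. Their mean deviation was also lowest in replicate 4 of the wild-type father group, at -0.32, where that of the ribosomal protein genes was 0.01. The part of these cells in the result was not tested.

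The 4 X-linked members are expressed from a single active X in both sexes once the other X of females is inactive. The difference of female over male was 0.05 ± 0.08 for *Rpl10*, 0.00 ± 0.11 for *Rpl36a*, -0.01 ± 0.10 for *Rpl39* and 0.07 ± 0.06 for *Rps4x* (SE), with a median of 0.02. *Rps4x*, the X copy of a small-subunit gene, had 6.77 and 6.72 in the females and 6.68 and 6.76 in the males of wild-type fathers, and 6.77 and 6.81 in the females and 6.66 and 6.69 in the males of heterozygous fathers. The sexes overlapped. The father difference of these genes was 0.08 ± 0.07 for *Rpl10*, -0.04 ± 0.10 for *Rpl36a*, 0.12 ± 0.09 for *Rpl39* and 0.00 ± 0.07 for *Rps4x*.

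The father difference was also compared between the sexes. With limma, 0 of the 86 genes were called for this interaction, beside 0 of 33093 probes (0.0%), and 1 had an unadjusted p under 0.05, beside 2.03% of named genes. It was *Rpl10l*, in which both males of heterozygous fathers (-3.52 and -3.46) lay below both males of wild-type fathers (-1.65 and -1.97), while the females were at -2.25 and -1.22 against -2.75 and -1.82. The father difference was 2.23 ± 0.63 (SE) greater in females than in males (limma unadjusted p = 0.014, adjusted p = 0.9956), with 2 embryos in each combination of father and sex. The second *Rpl10l* probe, well above background on 7 arrays, did not repeat this, with an interaction of 0.15 ± 1.595 (SE; limma unadjusted p = 0.928), and it correlated with the first at an r of 0.23 over the 8 embryos.

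Genes around the ribosomal proteins were read from lists of the pathway. *Rpsa* and *Fau* differed between father groups by 0.12 ± 0.11 and 0.04 ± 0.08 (SE), both without a call. None of the 25 ribosome assembly factors, among them *Npm1*, *Ncl* and *Fbl*, was called or reached an unadjusted p of 0.05, and their median was 0.02. In 1 of them the father groups did not overlap. Of 24 translation factors 1 had an unadjusted p under 0.05 from limma, *Eef1a1*, the elongation factor that carries aminoacyl-tRNA to the ribosome, at 0.21 ± 0.08 (SE), and its groups did not overlap. The 9 regulators of growth and of oligopyrimidine messenger RNAs, which include *Larp1*, *Mtor* and *Myc*, had a median of -0.02 and none below that p. Of 10 targets of p53, 9 were tested, with a median of 0.06 and 1 below an unadjusted p of 0.05, *Phlda3* (0.25 ± 0.10), beside the same 4.18% of named genes. *Cdkn1a* and *Mdm2* were not below it.

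Markers of the embryo were present, and so were some of decidua and trophoblast, which the label does not name. All 10 markers of the embryo proper, all 7 of primitive erythroid cells and all 8 of yolk sac endoderm were well above background on all 8 arrays. Of 8 markers of decidua and trophoblast, 7 were on the array and 5 were well above background on all arrays, while *Tpbpa* was on none. The summed level of this last list was 7.93 to 11.4 with wild-type fathers and 2.96 to 7.25 with heterozygous fathers, and *Prl8a2* differed by -2.46 ± 0.75 (SE; limma unadjusted p = 0.0126, adjusted p = 0.9998). Primitive erythroid markers summed to 514 to 1220 with wild-type fathers and 830 to 1048 with heterozygous fathers, and yolk sac endoderm markers to 479 to 674 and 580 to 612. The part of these cells in the values above was not tested.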

How the data were processed

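RNA of 8 E8.5 embryos was hybridised to one-colour Agilent 8x60K arrays. The authors extracted spots with Agilent's software (Feature Extraction 11.0.1.1). The deposited processed intensity has local background and spatial trends removed, with no scaling from array to array. Deposited series-wide intensity values served as an alternative. 0 columns of sample values were left unused. The files place probes on build mm9.

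Intensities were log2-transformed and each array's 75th percentile was set to 0. Control spots and those flagged as outliers were removed before averaging replicate spots. Of 55681 probes, 28685 carried a RefSeq accession and 27235 matched a symbol of assembly GRCm38.p6. Between 29203 and 39530 probes were well above background per array. Father groups were compared with limma 3.58.1 (R 4.3.3, data.table version 1.17.8), sexes with father's genotype as a covariate, and p-values adjusted over all 33093 tested probes (Benjamini-Hochberg), with the cut-off of the methods, an adjusted p under 0.01 and 2-fold. Tables and figures were made in Python 3.11.15 (numpy 2.4.6, pandas 2.3.3, matplotlib 3.10.9). On simulated data from these residuals (5 runs, 33068 probes) the father comparison recovered 22% of changes of 1 log2 unit, 56% of 1.5, 68% of 2 and 82% of 3, with 0 false calls. The changes were placed in probes drawn from all of these, and recovery for the ribosomal protein genes alone was not examined.

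The members and lists were chosen with earlier results of these data known. Members named were those at an unadjusted p under 0.05 without overlap, the 5 largest differences in each direction, the X-linked, stalk, 5S particle, patterning and paralogue lists with partners, and the 5 largest and smallest SDs. Alternatives were 3 other scalings, the series table, other filters, covariates, blocks and moderation, and each embryo left out. Start sites came from RefSeq. Protein and probe sequences were not used here, and some single genes are not reported here.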

Additional observations from a re-analysis of the deposited data

Results flagged for a closer look

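In each father group the gap of the highest or lowest embryo to its nearest neighbour was divided by the range of the group. A named member or list stood out by this measure in 3 of 88 groups, where chance alone gives about 1 in 20, or 4.4. *Rpl7l1* in replicate 3 of the wild-type father group lay at 0.80, against 0.51 to 0.53 in the other 3 embryos (ratio 0.9235). *Rpl3l* in replicate 3 of the heterozygous father group lay at -5.20, against -7.42 to -7.08 (ratio 0.849), and was not well above background on any array. The mean deviation of the embryo proper markers was 0.23 in replicate 4 of the wild-type father group, against -0.11 to -0.07 in the others (ratio 0.887). In that embryo the primitive erythroid markers had a mean deviation of -1.06 and the ribosomal protein genes 0.01.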

How the results depend on the processing

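The count of 0 members called was the same under every alternative run, between fathers, between sexes and for their interaction. The number at an unadjusted p under 0.05 between fathers, 2 as reported, was 0 after a shift by the array median, 4 after quantile normalization, 1 with no filter on dim probes, 1 with a random block for the embryo code, 4 with trended and robust moderation, 4 with array weights, 6 with any tested probe of a gene (chosen after seeing the data), and 1 to 4 leaving out 1 embryo (1 without replicate 2 or 3 of the wild-type or replicate 2 of the heterozygous father group, 4 without replicate 1 of the heterozygous father group). Genes without overlap, 2 as reported (3.62% of named genes), numbered 0 after the median shift (0.572% of named genes) and 8 after quantile normalization (3.51%). They numbered 6 after normexp on the median signal with quantile normalization (6.89%), 1 in the table of the whole series, and 2 to 6 leaving out 1 embryo (6 without replicate 1 of the heterozygous father group, 4 without replicate 3 of that group or replicate 1 of the other). For the other counts in this section the shares over all named genes under the alternatives are not given. Those counts therefore give no result about the members. After normexp on the median signal with quantile normalization, 1 gene was higher and 1 lower at an unadjusted p under 0.05 between fathers. These were *Rpl39l* and *Rps23* (limma unadjusted p = 0.0292 and 0.0203). *Rps15* and *Rpl4* did not pass there (limma unadjusted p = 0.0549 and 0.05). The median father difference of 0.03 became -0.072 after the median shift, which moved the median of all tested probes to -0.10. The range of the mean deviation, 0.22, was 1.23 after the median shift, 0.0546 after quantile normalization and 0.0617 after normexp. Between sexes the number at an unadjusted p under 0.05, 1 as reported, was 0 after the median shift, 2 with trended and robust moderation, 4 with array weights, and 1 to 2 leaving out 1 embryo (2 without replicate 3 of the wild-type father group). The median sex difference of 0.07 became 0.21 after the median shift, and that of the X-linked members 0.17 instead of 0.02. In replicate 3 of the heterozygous father group the array median minus the 75th percentile was -3.04, against -4.36 to -3.63 in the other embryos. The cause of these shifts was not tested. Of 646 single-gene values, 601 kept their size and their side of an unadjusted p of 0.05, 22 moved, 14 lost and 9 gained that threshold.

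Replicate numbers did not pair embryos across the father groups, since the residual correlations of same-numbered embryos were -0.55, -0.05, -0.59 and -0.15. With the replicate block the number of members at an unadjusted p under 0.05 was 0. The brightest probe of each of the 86 tested genes was well above background on every array. The largest standard errors of the father difference were those of the dim members *Rpl10l* (0.54) and *Rpl39l* (0.39). That of *Rpl10l* was 0.74 after quantile normalization and 0.44 after normexp on the median signal with quantile normalization. Whether the number of arrays, the signal over background or the scaling limits the precision was not tested.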

Other observations

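After quantile normalization of the arrays, which removed most of the movement that the ribosomal protein genes share between embryos, the father groups did not overlap in 8 of the 86 genes, beside 3.51% of the tested named genes. *Rpl4* (0.17), *Rps15* (0.19) and *Rpl7* (0.11) were higher with heterozygous fathers on the log2 scale. *Rpl27a* (-0.10), *Rpl35* (-0.10), *Rplp2* (-0.11) and *Rps10* (-0.14) were among those that were lower. The smallest adjusted p from limma under this scaling was 0.9886, so none was called. After normexp on the median signal with quantile normalization the groups did not overlap in 6 genes, beside 6.89% of the tested named genes, among them *Rps23* (-0.18, limma unadjusted p = 0.0203, adjusted p = 0.5821). *Rpl4*, *Rps15* and *Rps10* were without overlap under both of these scalings. These genes were named after their values were seen.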
